A study of Xenopus laevis with 6 samples.

Results

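Apolipoproteins A-I, A-IV, B, C-I, C-II, E, H and M, retinol binding protein 4 and transthyretin are plasma proteins that the vertebrate liver secretes to carry lipids, retinol and thyroid hormone. Their genes were taken from the whole count table by symbol (apoa1, apoa4, apob, apoc1, apoc2, apoe, apoh, apom, rbp4 and ttr), with every copy present. Xenopus laevis is an allotetraploid frog, so that many genes exist as a pair of homeologs, written .L and .S after the subgenome that carries them. The 10 symbols matched 16 of the 42638 genes of the table, with both copies for 6 symbols (apoa1, apoa4, apob, apoe, rbp4 and ttr) and 1 row, always .L, for apoc1, apoc2, apoh and apom. All 16 passed the filter on low counts and were tested.

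RNA was compared between basal Xenobots and intact embryos, all wild type (WT) and untreated. Xenobots are self-moving tissue bodies that form from the animal cap, the prospective ectoderm, cut from stage 9 embryos and left to heal and develop in 0.75X Marc's Modified Ringer's (MMR) solution at 14 °C until day 7. The embryos were intact siblings that reached stage 35 after 7 days at the same temperature and were reared in 0.1X MMR. Each group had 3 pools, of 50 Xenobots or 10 whole embryos each, so that medium and tissue origin differed together between the groups, and effects of the 2 cannot be told apart here. The study also compared whole embryos kept in the 2 media after stage 9, and it reports minimal change in their RNA. Those embryos are not among these pools, and explants kept in 0.1X MMR were not part of that comparison. The study describes its replicates in general as independent samples from separate batches, but the labels do not say which clutch a pool came from, so the p-values measure the spread between these pools, which may be partly technical.

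The liver forms from endoderm, which the explanted tissue does not include by its origin. Apolipoprotein B is the structural protein of the large lipoproteins, and apolipoprotein A-I is that of high density lipoprotein. The C and E apolipoproteins move between particles and guide lipases and receptors. Retinol leaves the liver bound to retinol binding protein 4, which travels in plasma in a complex with transthyretin. In mammals apolipoprotein E differs from most of the others in that many tissues outside the liver make it, among them brain glia, macrophages and skin.

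The libraries held 13597538 to 22225123 estimated counts, of which rRNA took 26.4 to 40.7%. Hepatocyte markers were near 0 in Xenobots. Of 13 tested genes of that list, 12 (fibrinogen chains, hrg and others) were lower, against 20.5% of all tested genes. The exception, serpinc1.S, did not pass the thresholds given below. The list summed to 3.69 to 5.84 normalized counts per 1000000 (CPM) in Xenobot pools against 1785 to 1978 CPM in embryo pools. Its genes alb.S (18, 7 and 9 counts) and hpx.L (2, 4 and 1 counts) were low in embryos too and were not tested. Epidermal markers summed to 14786 to 15026 CPM in Xenobots and 2732 to 3865 CPM in embryos. Of 20 tested genes of that list 10 were higher, 2 lower and 8 neither, against 5.75% higher and 20.5% lower over all tested genes. In such bulk samples, fewer cells of a type and less RNA per cell cannot be told apart.

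Most of these genes were at or near 0 counts in Xenobots, apoc1.L was reduced but still expressed, and apoe was not called lower. Of the 16 genes, 14 were lower in Xenobots (limma-voom, Benjamini-Hochberg adjusted p under 0.05 and log2 fold change below -2), none was higher (0, likewise with edgeR and DESeq2), and apoe.L and apoe.S passed neither call. At an unadjusted p under 0.05, 1 gene (apoe.S) had a positive change. Over all 26752 genes tested, 20.5% were called lower and 5.75% higher. The median fitted log2 fold change was -10.36 for the 16 genes and -0.07 for all tested genes. In the same 14 genes every Xenobot pool lay below every embryo pool, which was the case for 38.9% of all tested genes.

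In embryos all 16 genes were expressed, here meaning above 0.6 CPM in every pool. In Xenobots 3 stayed expressed by that measure: apoe.S, apoe.L and apoc1.L. A further 9 genes were at the floor, none of whose Xenobot pools had over 3 counts, and 2 of these (apoa4.S and apoh.L) had no count in any. The remaining 4 genes (apoa1.S, apob.L, apom.L and ttr.L) lay in between, with apob.L above 0.6 CPM in pools 1 and 2. Together the 16 genes held 786, 914 and 682 CPM in Xenobot pools 1, 2 and 3, and 4862, 4420 and 4887 CPM in embryo pools 1, 2 and 3. Without apoe and apoc1 the sums were 1.65, 3.52 and 1.68 CPM in Xenobots and 3871, 3664 and 3853 CPM in embryos. Thus apoe gave 92.3, 92.7 and 95.9% of these counts in the Xenobot pools but 12.2, 11.3 and 13.9% in the embryo pools.

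**Figure D1:**
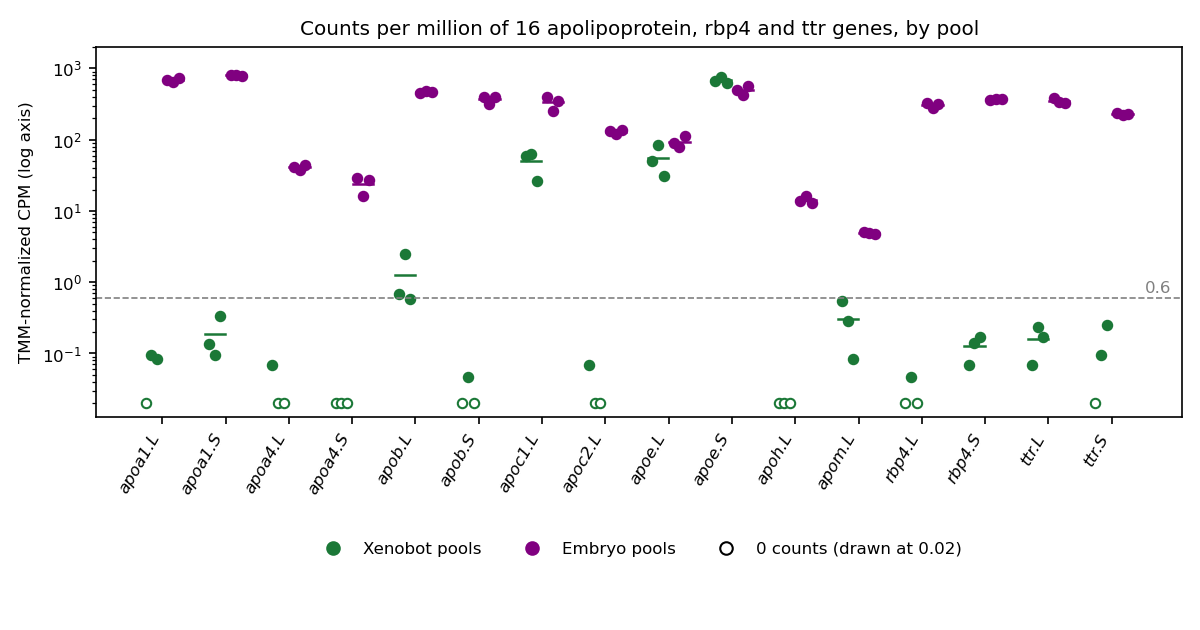
TMM-normalized CPM of each gene on a log axis, with 1 point per pool (Xenobots left, embryos right), open points drawn at 0.02 for pools with 0 counts, short lines at group means where no pool was at 0, and a dashed line at 0.6 CPM. Embryo points lie between 4.74 and 812 CPM, while in Xenobots only apoc1.L, apoe.L and apoe.S lie above 0.6 CPM in all 3 pools.

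Apolipoprotein A-I activates lecithin cholesterol acyltransferase on high density lipoprotein, and both of its copies were among the most strongly reduced genes. apoa1.L (chromosome 7L, 83793608 to 83797090) had 0, 2 and 1 counts in the 3 Xenobot pools and 14738, 11925 and 15566 counts in the 3 embryo pools. Its normalized level was 0.0593 ± 0.0516 CPM in Xenobots and 686 ± 39.5 CPM in embryos (mean ± SD, n = 3 each), and the fitted log2 fold change was -13.07 (SE 0.46, limma-voom adjusted p = 2.35e-07). The 3 Xenobot counts put apoa1.L 10953-fold lower, with an exact 95% interval of 3747 to 53112 that covers counting error only. apoa1.S (chromosome 7S, 71627384 to 71631792) had 2, 2 and 4 counts in Xenobots against 17363, 15005 and 16715 in embryos. It was 4774-fold lower (interval 2422 to 11058), with a log2 fold change of -12.04 (SE 0.41, limma-voom adjusted p = 2.35e-07). Fitted log2 values of genes this close to 0 depend on the small prior count added in voom, so the count ratios are given beside them. Without Xenobot pool 1, the pool with no apoa1.L count, the value of apoa1.L was -12.46.

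Apolipoprotein A-IV, in mammals made by the intestine and taken up into chylomicrons and high density lipoprotein, was likewise at or next to 0 counts in Xenobots. apoa4.L (7L, 83843514 to 83847409) had 1, 0 and 0 counts in Xenobots and 890, 696 and 960 counts in embryos (log2 fold change -9.79, SE 0.49, limma-voom adjusted p = 4.57e-07). apoa4.S (7S, 71676244 to 71678830) had 0 counts in all Xenobot pools and 615, 302 and 585 in embryos, which is at least 389.5-fold lower when Xenobots are set at a floor of 3 counts over the group. Of the 16 genes, the embryo pools varied most in apoa4.S, with a coefficient of variation (CV) of 28.1%, and pool 2 was the lowest.

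apob, which encodes the scaffold of very low density lipoprotein, kept a trace of its .L copy. apob.L (5L, 155349097 to 155358699) had 10, 53 and 7 counts in Xenobots and 9595, 8801 and 10202 counts in embryos. In CPM the Xenobot pools stood at 0.687, 2.49 and 0.588, or 0.147, 0.534 and 0.126% of the embryo mean of 466 ± 15.4 CPM. Pool 2 was thus the highest of the 3, and all were far under any embryo pool (log2 fold change -8.67, SE 0.39, limma-voom adjusted p = 3.87e-07). Without Xenobot pool 2 the log2 fold change of apob.L was -9.43. The apob.S row (5S, 131366675 to 131370024) had 0, 1 and 0 counts in Xenobots against 8397, 5898 and 8475 in embryos, with a log2 fold change of -12.94 (SE 0.45, limma-voom adjusted p = 2.35e-07). These annotated spans of 9603 and 3350 bases are shorter than the coding sequence of full-length mammalian apolipoprotein B, so each row may hold only part of its gene.

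The C apolipoproteins act on lipases: C-II is the cofactor of lipoprotein lipase, and C-I, in mammals, inhibits lipoprotein uptake and cholesteryl ester transfer. In Xenobots apoc2.L was at the floor, and apoc1.L was not. apoc2.L (7L, 114985270 to 114990650) had 1, 0 and 0 counts in Xenobots and 2821, 2195 and 2973 in embryos (log2 fold change -11.44, SE 0.48, limma-voom adjusted p = 3.34e-07). apoc1.L (7L, 114945753 to 114950534) still had 857, 1346 and 317 counts in Xenobots against 8528, 4704 and 7593 in embryos. The normalized level of apoc1.L was 58.9, 63.2 and 26.6 CPM in Xenobots and 399, 254 and 353 CPM in embryos, so that the Xenobot pools held 17.6, 18.8 and 7.93% of the embryo mean and the groups did not overlap. Its log2 fold change was -2.81 (SE 0.30, limma-voom adjusted p = 2.17e-05), the smallest of the 14 called. When the test asked for a change beyond the log2 threshold of 2 itself (limma treat), apoc1.L was no longer called, with an adjusted p of 0.0654. Under the other 16 alternatives, not counting the sum over homeologs, its adjusted p was between 8.9e-23 and 0.000217.

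Apolipoprotein E is the ligand through which remnant lipoproteins bind the low density lipoprotein receptor family, and it was the only one of the 10 proteins with no copy called lower. apoe.S (7S, 95612136 to 95618394) had 9827, 16224 and 7421 counts in Xenobots and 10770, 7824 and 12197 counts in embryos. After normalization these were 675, 762 and 623 CPM in Xenobots and 504, 423 and 567 CPM in embryos. All 3 Xenobot pools of apoe.S were above all 3 embryo pools, by a modest margin (log2 fold change 0.47, SE 0.13, limma-voom adjusted p = 0.0115). Under 16 alternatives (all but the treat test and summing of homeologs) its log2 fold change stayed positive, from 0.32 to 0.59, with adjusted p from 0.00642 to 0.20, and 14 of the 16 had adjusted p under 0.05. The 2 exceptions were scaling by total counts (0.20) and leaving out Embryo pool 2 (0.0589).

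apoe.L (7L, 114920558 to 114927253) went the other way. Its counts were 722, 1818 and 371 in Xenobots and 1901, 1446 and 2447 in embryos, or 49.6, 85.4 and 31.2 CPM against 88.9, 78.2 and 113.8 CPM. The groups overlapped, since Xenobot pool 2 lay above Embryo pool 2, and Xenobot pool 3 was the lowest of all. The log2 fold change was -0.85 (SE 0.30, limma-voom adjusted p = 0.0315). It was negative under the same 16 alternatives, from -1.22 to -0.50, but had adjusted p under 0.05 in only 10 of them (range 0.000908 to 0.131). Leaving out Xenobot pool 1 or 3 gave adjusted p of 0.0878 and 0.079, and leaving out Embryo pool 1 or 3 gave 0.0623 and 0.103. With both copies summed, apoe had 742 ± 97.8 CPM in Xenobots and 592 ± 89.8 CPM in embryos, a difference that did not pass the test (log2 fold change 0.31, SE 0.14, limma-voom adjusted p = 0.0728).

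The .L copy therefore made up 6.85, 10.08 and 4.76% of apoe counts in Xenobots and 15.0, 15.6 and 16.7% in embryos, with no overlap. Xenobots also held little apoc1.L for their apoe, with 8.12, 7.46 and 4.07 apoc1.L counts per 100 apoe counts against 67.3, 50.7 and 51.9 in embryos. These ratios compare each gene with another gene of the same library, so that the scaling between libraries does not enter them.

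**Figure D2:**
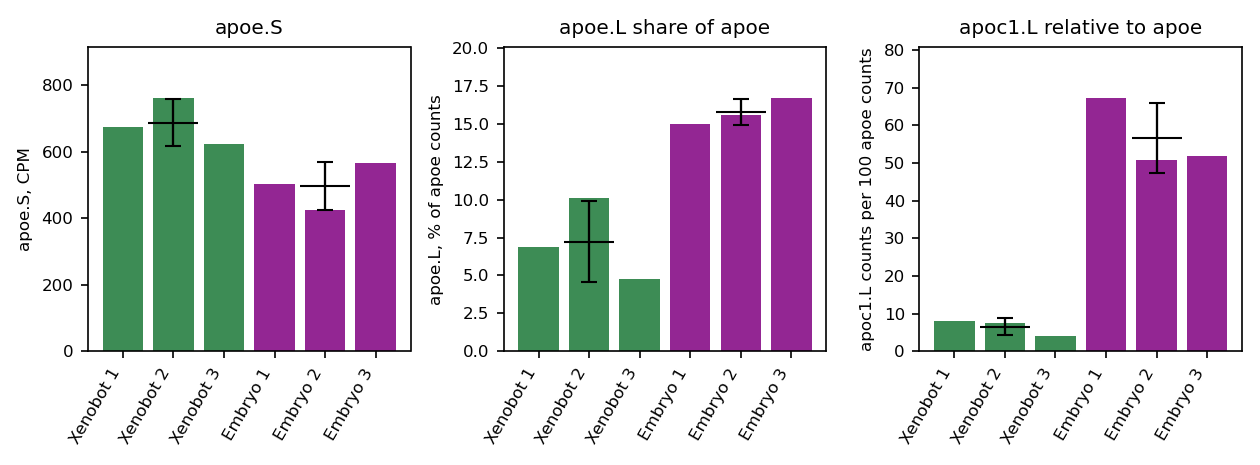
Bars show, for each pool, apoe.S in CPM (left), apoe.L as a percentage of all apoe counts (middle) and apoc1.L counts per 100 apoe counts (right), with the group mean and SD (n = 3) in black. apoe.S is higher in the 3 Xenobot pools, whereas both ratios are lower there than in any embryo pool.

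Markers of other cell types, some of them sources of apolipoproteins E and C-I in mammals, were looked up beside these values. The leukocyte list, macrophages included, was added after the values were seen. All 10 of its 10 tested genes were lower in Xenobots, against 20.5% of all tested genes. Its summed levels were 1.31, 1.03 and 2.01 CPM in Xenobot pools 1, 2 and 3 against 141 to 166 CPM in embryos. The pan-leukocyte genes ptprc.L and lcp1.L had 0 counts in every Xenobot pool. Gut and pancreas, neural, muscle, and blood and vessel markers were not all at 0. The gut and pancreas endoderm list summed to 123, 141 and 171 CPM in Xenobot pools 1, 2 and 3 (355 to 394 CPM in embryos). Of its 16 tested genes 13 were lower and 2 higher, against 20.5% lower and 5.75% higher over all tested genes. The neural list summed to 81.6, 89.5 and 85.3 CPM in Xenobot pools 1, 2 and 3 (461 to 631 CPM in embryos), with 13 of 14 tested genes lower. In these pools the median tested gene of the gut list stood at 1.25, 2.43 and 1.24% of its embryo mean. That of the neural list stood at 0.240, 0.236 and 0.161%, so both sums rest on some genes far more than on others. In the same pools the muscle list summed to 141, 301 and 28.3 CPM (8019 to 12494 CPM in embryos). All 17 of its tested genes were lower, again against 20.5% of all tested genes. The blood and vessel list, which holds red cell as well as endothelial genes, summed to 175, 177 and 148 CPM in Xenobot pools 1, 2 and 3 (438 to 635 CPM in embryos). Of its 12 tested genes 7 were lower. Its endothelial cadherin gene cdh5.L, picked later from that list, had 166, 277 and 28 counts in these pools. Pool 3 was thus the lowest in the muscle sum, in cdh5.L and, by a small margin, in the blood and vessel sum. It was also the lowest in apob.L, apoc1.L, apom.L and both apoe copies. Pool 2 was the highest in the muscle sum and cdh5.L, and hardly above pool 1 in the blood and vessel sum (177 against 175 CPM). It was also the highest in apob.L, apoc1.L and both apoe copies, whereas apom.L was highest in pool 1. The copy apoe.S, which was not lower in Xenobots, thus shared this order. By contrast, apoa1.S was highest in pool 3 (0.336 CPM) and ttr.L was lowest in pool 1 (0.0687 CPM), both from few counts. How many of all tested genes follow the same order of pools was not counted. The leukocyte and gut sums were instead highest in pool 3, and the gut and neural sums were lowest in pool 1. The part of such cells in the remaining apob.L, apoc1.L, apom.L and apoe counts was not tested.

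Apolipoprotein H, or beta-2-glycoprotein I, binds anionic phospholipids in plasma, and apolipoprotein M carries sphingosine-1-phosphate on high density lipoprotein. Both had few counts in embryos, and both were lower in Xenobots. apoh.L (9_10L, 53883295 to 53887712) had 292, 296 and 282 counts in embryos and 0 in every Xenobot pool, so it was at least 225.6-fold lower against the floor of 3 counts over the group (log2 fold change -8.78, SE 0.42, limma-voom adjusted p = 4.25e-07). apom.L (8L, 65857451 to 65866685) had 8, 6 and 1 counts in Xenobots and 109, 90 and 102 counts in embryos. It kept 6.40% of the embryo level (exact interval 3.54 to 10.7%, counting error only), with a log2 fold change of -4.09 (SE 0.44, limma-voom adjusted p = 2.33e-05).

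The retinol carrier and its plasma partner fell together. rbp4.L (7L, 32132548 to 32151057) had 0, 1 and 0 counts in Xenobots against 6942, 5167 and 6812 counts in embryos (log2 fold change -12.68, SE 0.41, limma-voom adjusted p = 2.35e-07). rbp4.S (7S, 25681781 to 25691221) had 1, 3 and 2 counts against 7683, 6943 and 8025 counts, a 2937-fold lower level (interval 1349 to 8005). Its embryo pools varied least of all 16 genes, with a CV of 2.39%.

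Transthyretin, the thyroid hormone carrier that holds retinol binding protein 4 in the circulation, was at 1, 5 and 2 counts for ttr.L (6L, 118905127 to 118910226) in Xenobots and 8328, 6309 and 7153 counts in embryos. The ttr.S copy (6S, 97368072 to 97392603) had 0, 2 and 3 counts in Xenobots and 5015, 4102 and 4982 counts in embryos. The levels were 2119-fold (interval 1075 to 4909) and 2194-fold (940 to 6758) lower. In the limma-voom fit ttr.L was at -10.93 (SE 0.42, adjusted p = 2.78e-07) and ttr.S at -11.08 (SE 0.55, adjusted p = 4.5e-07) on the log2 scale. The value of ttr.S was -10.33 without Xenobot pool 1 and -11.82 without Xenobot pool 3. Neither copy of rbp4 or ttr reached 0.6 CPM in any Xenobot pool.

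**Figure D3:**
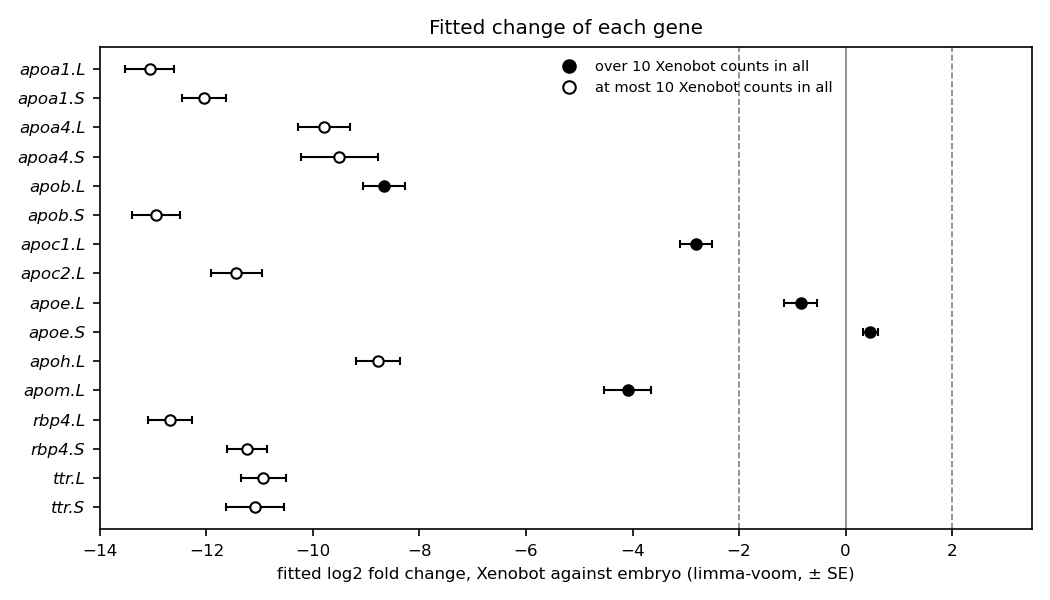
Fitted log2 fold change of each gene in Xenobots against embryos, with its SE (limma-voom, 3 pools per group), open points for genes with at most 10 Xenobot counts in all and dashed lines at -2 and 2. The 2 apoe copies lie inside the dashed lines, apoc1.L at -2.81 and apom.L at -4.09 follow, and the other 12 genes lie at -8.67 or lower.

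Whether both copies of a pair changed alike was asked from the log2 ratio of .L to .S counts in each library. With 3 pools against 3 the exact two-sided permutation test cannot give a p below 0.1, so none of the 5 pairs compared could pass, and apoa4 had too few Xenobot counts to enter. For apob the copies were near balance in embryos (.L share 53.3, 59.9 and 54.6%), while .L held 100, 98.1 and 100% of the few Xenobot counts. That ratio was 4.14 log2 units higher in Xenobots (p = 0.1, adjusted 0.167, exact permutation). For apoe it was 1.33 units lower (-1.33, p = 0.1, adjusted 0.167, exact permutation), resting on at least 371 counts of each copy in every pool. For rbp4 the difference was -1.44 (p = 0.1, adjusted 0.167, exact permutation) and for apoa1 -1.08 (p = 0.4, adjusted 0.5, exact permutation), both from fewer than 10 Xenobot counts in a copy. For ttr it was 0.12 (p = 1, exact permutation). RSEM divides reads that fit both copies of a pair, and counts of apoa1, rbp4, apoe and, in 1 embryo pool, ttr were not whole numbers, so part of their split between copies is estimated.

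Several of these genes lie near one another in the NCBI annotation of the assembly to which the reads were aligned. On 7L, apoc1.L begins 25.2 kb and apoc2.L 64.7 kb from the start of apoe.L toward higher coordinates. Over that stretch the fitted log2 fold changes were -0.85 for apoe.L, -2.81 for apoc1.L and -11.44 for apoc2.L. The gene between apoc1.L and apoc2.L, LOC121395621, was not tested. On the other side of apoe.L, tomm40.L, which encodes the pore of the mitochondrial outer membrane translocase, was at -0.59 (SE 0.12). The adhesion molecule gene nectin2.L was at 0.98 (SE 0.11), and neither was called. The fourth annotated gene on that side, LOC121395620, was higher in Xenobots (2.71, SE 0.22). On 7S, tomm40.S (0.11, SE 0.13) is likewise the neighbour of apoe.S, followed by LOC100505446 (1.47, SE 0.12, not called), bcam.S (-0.47) and cblc.S, which was higher (2.70, SE 0.11).

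On both 7L and 7S, apoa1, apoa4 and apoa5 lie in this order within 81.9 kb and 76.7 kb, measured between the starts of apoa1 and apoa5. On 7L the untested genes XB5857568.L and LOC108697001 lie among them. All 6 apoa genes were lower in Xenobots. The nearest tested gene before apoa1, the salt-inducible kinase gene sik3, was at 0.04 (SE 0.11) for sik3.L and -0.24 (SE 0.13) for sik3.S. Just past apoa5.L, zpr1.L was at -0.30 (SE 0.11) and bud13.L at -0.09, and past apoa5.S the gene LOC108697585 was higher in Xenobots (3.00, SE 0.20).

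**Figure D4:**
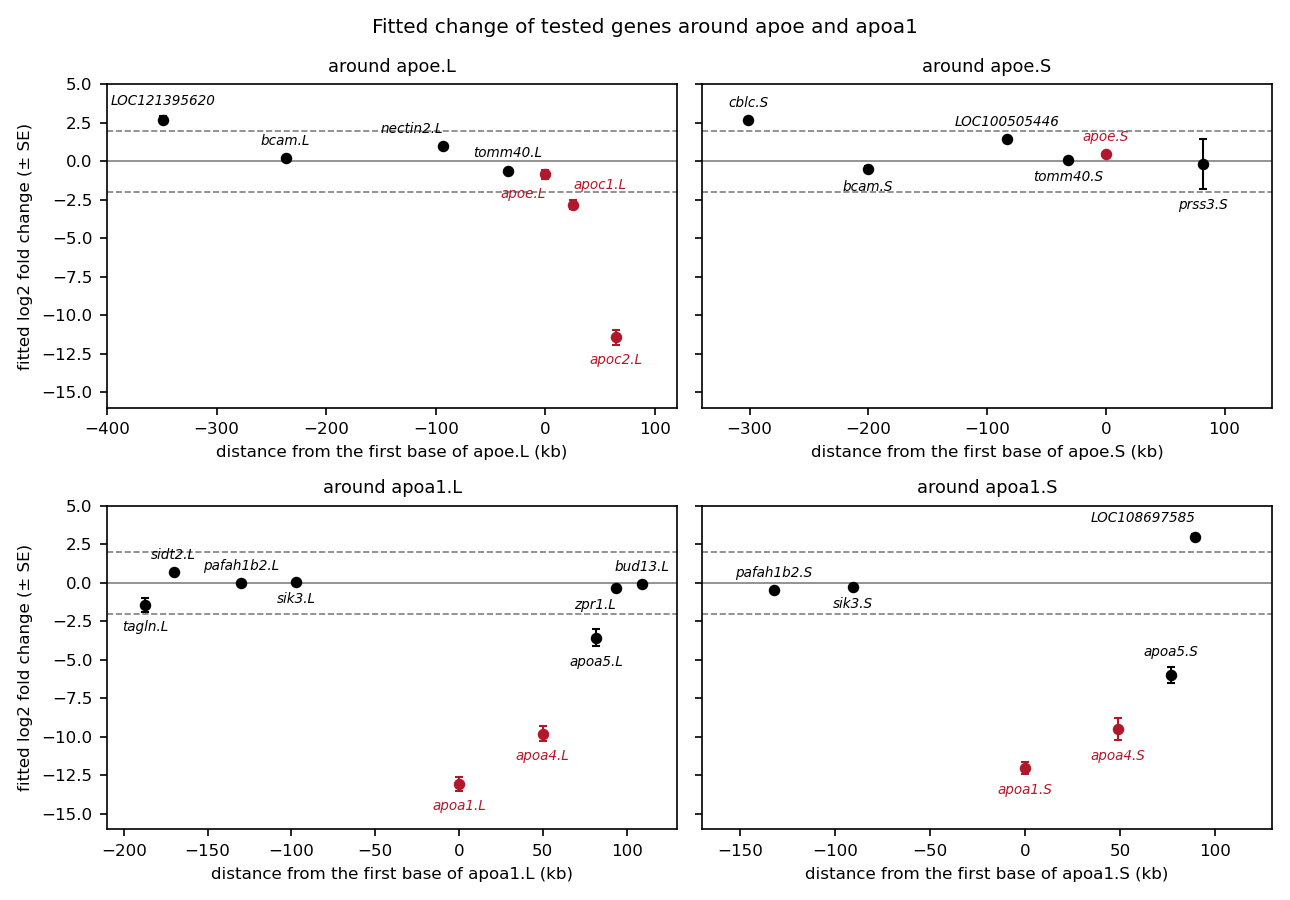
Fitted log2 fold change (± SE) of tested genes plotted by the distance of their first base from that of apoe.L, apoe.S, apoa1.L or apoa1.S in kb, with the apolipoprotein genes of the 10 symbols in red and dashed lines at -2 and 2. Genes that were not tested, and more distant ones, are not drawn. The apoa1 and apoa4 genes lie at -9.51 or lower, with sik3 and pafah1b2 on one side of them near 0, and the change grows from -0.85 at apoe.L to -11.44 at apoc2.L.

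Other genes with a like pattern were sought by the Euclidean distance of log2 CPM over the 6 libraries, for the copies of apoa1, apoe and apob with the most counts in embryos. The nearest 3 genes to apoa1.S were fetub.L (distance 1.47), hrg.L (2.62) and serpina1.S (3.66), which encode fetuin B, histidine-rich glycoprotein and alpha-1-antitrypsin, all liver plasma proteins in mammals. The nearest to apoe.S were sparc.S (0.43), cfl1.L (0.70) and p4hb.L (0.80), which encode a matrix glycoprotein, cofilin and protein disulfide isomerase. The nearest to apob.L were tnnc2.L (2.33), myh8.L (2.38) and tnni2.S (2.59), which encode fast muscle troponins and a myosin heavy chain. Such distances depend on level as well as on change.

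Genes of other plasma proteins of the liver were also mostly lower. That list includes most genes of the hepatocyte marker list, such as the fibrinogen chains, hrg and ambp. The marker hnf4a is in the list of transcription factors below, so these results are not separate from those of the hepatocyte markers. Of 35 tested genes in the plasma protein list, 30 were lower and none higher (0 with limma-voom, edgeR and DESeq2, and 0 with a positive change at an unadjusted p under 0.05), with a median log2 fold change of -7.45. Over all tested genes 20.5% were lower. The largest changes were in hrg.L (-13.53), fga.S, a fibrinogen chain (-12.66), and serpina1.S (-12.33). The members with the highest Xenobot level were complement genes: c3.L was at 567 CPM against 1226 CPM in embryos (-1.13, not called) and c9.L at 52.6 against 210 CPM (-2.02, called lower).

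Of 38 tested genes for liver and endoderm transcription factors, 27 were lower and 2 higher, with a median of -3.93 (all tested genes: 20.5% lower and 5.75% higher, so that the share of higher genes was near that of all genes). In this list onecut1.L (-9.99), onecut2.L (-8.94) and onecut2.S (-8.19) fell most, in RNA of whole embryos that does not give the tissue of origin. The 2 higher genes were both copies of cebpd, an inflammation-responsive factor that is not particular to the liver, at 2.03 and 2.38. The count of higher genes was 1 without Xenobot pool 3 or without Embryo pool 2, and 3 without Xenobot pool 2 or without Embryo pool 1.

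Among the apolipoprotein genes outside the 10 symbols, 2 of 5 tested were lower, both copies of apoa5, a regulator of plasma triglyceride (20.5% of all tested genes). apoa5.L fell by 3.57 log2 units, and apoa5.S, at 0 counts in every Xenobot pool, had a fitted value of -5.98. The genes apoo.L (-0.83) and apool.L (-1.11), whose products are parts of the mitochondrial inner membrane in spite of their names, were not called. clu.L, which encodes the secreted chaperone clusterin and was picked after its values were seen, lay just short of the fold threshold (-1.98, SE 0.50, limma-voom adjusted p = 0.00568), and 3 genes of the list were lower without Xenobot pool 2, Xenobot pool 3 or Embryo pool 2.

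Genes for lipoprotein assembly and secretion divided. Of 26 tested, 13 were lower and none higher (0 with limma-voom, edgeR and DESeq2, against 7 with a positive change at an unadjusted p under 0.05), with a median of -1.54. Over all tested genes 20.5% were lower and 5.75% higher. The lower genes with the largest changes were pla2g12b.S (-8.93), cideb.L (-6.59), which acts in loading of very low density lipoprotein, and dgat2.L (-6.34), an enzyme of triglyceride synthesis. The members with the highest Xenobot level were p4hb.L, a subunit of the microsomal triglyceride transfer complex and a general disulfide isomerase, at 893 CPM against 435 CPM, and acsl1.L, which activates fatty acids, at 683 CPM against 190 CPM (log2 fold changes 1.03 and 1.85, neither called). The other copy, p4hb.S, was at 46.3 against 54.3 CPM (-0.23, not called). Of the 22 symbols of the list 19 were found. The symbol mttp, for the namesake protein of the microsomal triglyceride transfer complex, matched no row, so its level is not known here.

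Receptors and lipases that act on lipoproteins had the median nearest to 0 of these lists (-0.69). Of 38 tested genes 8 were lower, a share near the 20.5% of all tested genes, and none higher (0 with limma-voom, edgeR and DESeq2, against 7 with a positive change at an unadjusted p under 0.05). The endocytic receptor megalin, lrp2.L, which takes up retinol binding protein 4 in the mammalian kidney, fell from 106 to 1.72 CPM (-5.95). lipc.L, hepatic lipase (-4.56), and vldlr.L, the very low density lipoprotein receptor (-4.27), were also lower. The genes with the highest Xenobot level in this list were lrp1.L, a receptor for remnants that carry apolipoprotein E (53.4 against 168 CPM, -1.68, not called), and npc2.S, a lysosomal cholesterol carrier (55.6 against 27.5 CPM, 1.02, not called).

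In the retinoid list, 28 of 47 tested genes were lower and 1 was higher, with a median of -2.88, against 20.5% lower and 5.75% higher over all tested genes. The largest changes were in rbp3.L (-8.51) and rpe65.L (-8.24) of the retinal visual cycle and cyp26c1.L (-8.27), which degrades retinoic acid. The higher gene was aldh1a1.S, a retinaldehyde dehydrogenase, at 144 CPM against 32.7 CPM (2.14). Of the 2 copies of stra6, the cell surface receptor for retinol binding protein 4, stra6.L remained at 45.3 ± 3.32 CPM in Xenobots and 40.5 ± 1.12 CPM in embryos (log2 fold change 0.16, SE 0.10, limma-voom adjusted p = 0.18), and stra6.S was at 0 counts in all Xenobot pools and 77.5 to 87 counts in embryos. The stra6 genes were picked from the list after their values were seen.

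**Figure D5:**
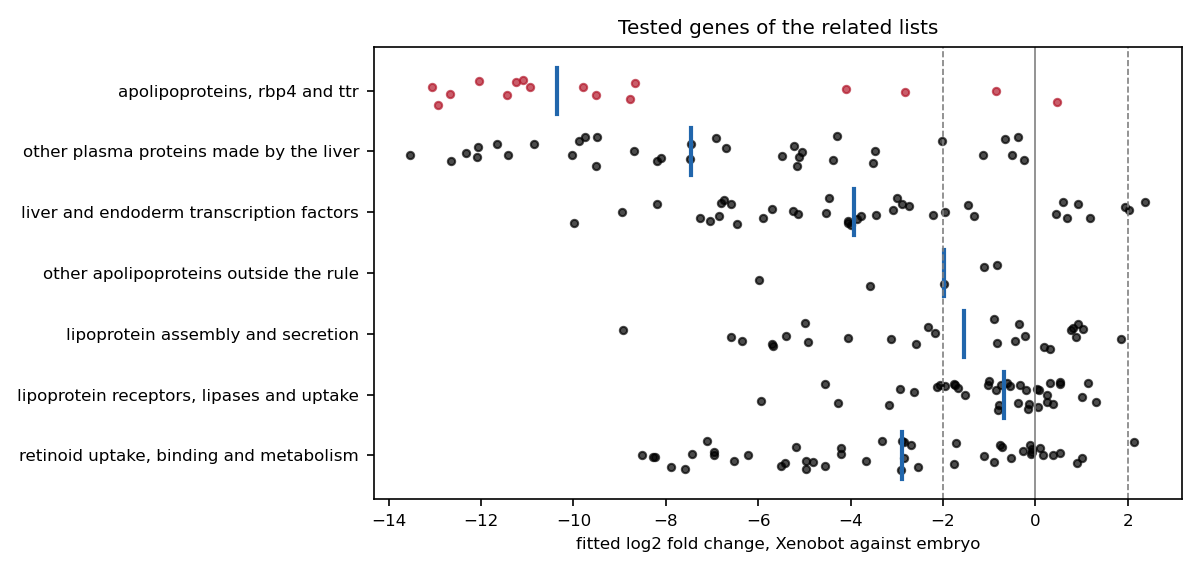
Each point is the fitted log2 fold change of a tested gene in the 16 carrier genes (red) and in 6 related lists (black), with the list median as a blue bar and dashed lines at -2 and 2. The medians run from -10.36 for the carriers and -7.45 for other liver plasma proteins to -0.69 for lipoprotein receptors and lipases.

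Between embryo pools the 16 genes had CVs of 2.39 to 28.1%, with a median of 8.18%, against a median of 11.7% over all tested genes. These medians were not matched for expression level, on which the CV depends. Embryo pool 2 was the lowest of the 3 in 10 of the 16 genes (62.5%), as it was in 33.4% of all tested genes. In Xenobots the only gene of the set with both high counts and a small spread was apoe.S, with a CV of 10.2%, while apoc1.L and apoe.L had CVs of 40.4 and 49.8%.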

How the data were processed

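RNA from 3 Xenobot and 3 embryo pools was depleted of rRNA and sequenced as stranded, single-end libraries. The authors used fastp, STAR (NCBI Xenopus laevis genome, version 10.1) and RSEM, and deposited the estimated counts per gene, which need not be whole. A second deposited table holds log2 CPM values adjusted by the authors for surrogate variables, for 28009 genes, and served as an alternative only. Groups came from the sample titles. No column of other samples was present (0).

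Genes above 0.6 CPM in at least 3 libraries were kept (26752); the study gives the same filter for the 28009 genes of its adjusted table. With the study's thresholds, limma 3.58.1 (voom, run under R 4.3.3) compared the 2 groups without further terms, on counts scaled by TMM factors from edgeR 4.0.16. Adjustment ran over all tested genes. CPM in the text are TMM-normalized, not per length, since transcript lengths were not used here, so shares and ratios between genes are shares of counts and not of molecules. Intervals of count ratios are exact 95% binomial intervals, and they and the floor of 3 counts cover counting error only. Homeolog ratios used a pseudocount of 0.5. Gene positions came from the RefSeq annotation of the same assembly.

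The genes, the related lists and the tests were chosen with earlier results of these data known. Every gene of the 10 symbols is described. From each related list the text names up to 3 genes with the largest change past both thresholds and up to 2 with the highest Xenobot level. For 3 abundant members it names the 3 nearest profiles among other tested genes with a symbol that is not a locus number. Neighbouring genes were taken by position, and others are marked as picked later. On simulated counts for 26752 genes, the limma-voom fit recovered 200 of 200 changed genes with 0 false calls. The planted changes went up and down in equal number, all lay past the fold threshold, and every gene had the same spread. They were placed only in genes with a mean level well above the filter on low counts. In the pools themselves 5471 genes were called lower and 1538 higher. Recovery with so many changed genes, in genes with low counts, with changes near the threshold or with a wider spread was not tested. edgeR's quasi-likelihood test and DESeq2 1.42.0 on rounded counts, and sva 3.50.0, were alternatives.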

Additional observations from a re-analysis of the deposited data

How the results depend on the processing

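The count of 14 lower genes was the same with edgeR's quasi-likelihood test, DESeq2, RLE, upper-quartile or total-count scaling, no filter, mean CPM above 1, 1 surrogate variable, the deposited adjusted values and each pool left out in turn (14 to 14). It was 13 with limma treat and 9, out of 10 proteins, with homeologs summed. No gene of the 16 was called higher in any of these (0). Of 272 gene-level alternatives 271 kept direction and call, the exception being apoc1.L under treat. The fitted size moved by over 1.5 times in 23 of them (6 with edgeR, 6 with DESeq2, 7 with the deposited adjusted values and 4 with a pool left out). Among the widest moves were apoa4.S to -11.78 and apoh.L to -11.02 with edgeR, and rbp4.S to -8.70, ttr.L to -12.58 and apob.L to -7.13 with the deposited adjusted values. With the replicate number as a block 14 were lower. Same-numbered pools correlated at 0.0568, 0.0531 and 0.0105 in their deviations, and other pools of the 2 groups at -0.0712 to 0.0214. With 3 pools per group such values cannot settle whether equal numbers share a clutch. The labels do not say so, and the main fit did not take the numbers as pairs. The median over all genes moved from -0.07 to -0.21 with total counts and -0.18 with upper-quartile factors. Under treat, calls of higher genes over all genes fell from 1538 to 662, of lower receptors from 8 to 4, of lower other apolipoproteins from 2 to 1, and of higher retinoid genes and liver factors to 0. Lower other apolipoproteins were 3 with RLE, upper-quartile or total counts, no filter or mean CPM above 1. Higher liver factors were 3 with 1 surrogate variable and 1 with RLE, upper-quartile or total counts or the deposited adjusted values, and higher retinoid genes 0 with total counts. With a pseudocount of 1 the ttr ratio turned to -0.10 and that of apob was 3.39. The cause of these changes was not tested. Depth limits the ratios of genes with a few Xenobot counts. For apoa4.L, with only 1 count, the exact interval ran from 355-fold to 78273-fold lower.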
